A study of Mus musculus with 8 samples.

Results

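The phagocyte NADPH oxidase is described here through 5 genes for its parts, Cyba, Cybb, Ncf1, Ncf4 and Rac2, in mouse acute myeloid leukaemia cells that had or had not lost Cdc73. The genes were taken by symbol from the 23361 rows of the deposited table. All 5 had a row and passed the floor of 1 FPKM in at least 1 group that 11158 genes reached. FPKM is a fragment count divided by transcript length and by library size, so levels of different genes can be set side by side. Poly(A) RNA came from established leukaemia lines of strain 129S6, grown from bone marrow cells that received the fusion oncogene MLL-AF9. Every group carried CreERT2, a recombinase switched on by 4-hydroxytamoxifen (4OHT), and every group received 7.5 nM 4OHT in medium with interleukin 3. The groups were Cdc73fl/fl CreERT2 cells ("floxed") and Cdc73 +/+ CreERT2 cells ("wild type"), each after 24 h or 48 h, and comparing them asks which transcripts change once Cdc73 is cut out. Whether a line came from 1 clone is not stated in the labels. Each group had 2 biological duplicates, which the authors combined into 1 FPKM value, so values per library, their spread and an SD are not analysed here. A gene is said to be called higher or lower when its q-value in the authors' deposited table was under 0.05.

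The phagocyte oxidase makes superoxide, which neutrophils and macrophages release into the vacuole around an ingested microbe. Its catalytic core sits in the membrane and is a pair of proteins, gp91phox (the product of Cybb) and p22phox (the product of Cyba). The core is silent until cytosolic proteins reach it, among them the organiser p47phox (Ncf1), p40phox (Ncf4) and a GTP-bound Rac, which in blood cells is largely Rac2. Loss of gp91phox, p22phox, p47phox or p40phox in people causes chronic granulomatous disease. In bone marrow the oxidase genes are switched on as granulocytes and monocytes mature.

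Cdc73, the gene to be excised, stood at 26.2 FPKM in wild type against 5.96 in floxed cells at 24 h, then 26.9 against 5.45 at 48 h. The floxed level was 22.7% of wild type at 24 h and 20.3% at 48 h. The lines express myeloid genes at high level, among them the myeloperoxidase gene Mpo at 1145 FPKM in wild type cells at 24 h. None of 6 erythroid markers reached 1 FPKM. Of 8 lymphocyte markers 2 did: the B cell gene Cd79b, at 0.890 FPKM in wild type against 8.21 in floxed cells at 24 h and 1.06 against 5.90 at 48 h, called higher at both times, and the T cell kinase Lck, between 1.18 and 2.02 without a call, while Cd3e was listed at 0 in every group. The genotypes are separate lines and cells without 4OHT were not analysed here, so a difference that existed before 4OHT cannot be told apart from one that followed it. In bulk RNA, a change in the share of cells of one kind and a change of RNA per cell cannot be told apart either.

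Cybb and Cyba, the membrane pair, were the oxidase genes called higher in floxed cells at 48 h, and the stretch around their transcript starts is shown with that of Ncf1, which had no call at either time. The sequences are those RefSeq gives for GRCm38.p6, the assembly of mm10, and run 5′ to 3′ on the gene's strand from 250 bases before to 30 bases after the annotated start. GENCODE also gives Cybb an earlier start, outside this window. All are on the minus strand: Cyba at chr8:122432911-122433190, Cybb at chrX:9469295-9469574 and Ncf1 at chr5:134229596-134229875. Capitals mark all matches to 4 short motifs searched on both strands: GAGGAA (the core bound by PU.1), a pair of GAAA set 2 bases apart (the core of interferon response elements), GGGCGG (the GC box) and CCAAT (the CCAAT box). No match overlapped another.
Cyba: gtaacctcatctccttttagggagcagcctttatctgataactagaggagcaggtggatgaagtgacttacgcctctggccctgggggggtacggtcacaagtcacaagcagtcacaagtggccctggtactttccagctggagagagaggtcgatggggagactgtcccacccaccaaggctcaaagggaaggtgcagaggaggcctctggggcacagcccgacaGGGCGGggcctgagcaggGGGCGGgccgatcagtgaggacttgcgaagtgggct
Cybb: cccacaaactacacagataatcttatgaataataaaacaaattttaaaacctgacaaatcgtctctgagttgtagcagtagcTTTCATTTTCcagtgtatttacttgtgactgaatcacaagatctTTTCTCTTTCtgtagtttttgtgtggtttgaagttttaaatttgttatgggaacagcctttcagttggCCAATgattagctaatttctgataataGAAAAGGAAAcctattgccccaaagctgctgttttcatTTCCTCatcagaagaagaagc
Ncf1: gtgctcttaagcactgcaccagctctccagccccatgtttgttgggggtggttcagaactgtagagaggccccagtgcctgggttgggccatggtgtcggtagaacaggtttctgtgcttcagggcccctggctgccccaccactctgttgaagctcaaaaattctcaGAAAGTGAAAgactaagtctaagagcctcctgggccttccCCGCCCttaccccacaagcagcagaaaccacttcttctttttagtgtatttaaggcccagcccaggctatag

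The 3 starts differ in base composition and in the motifs they hold. GC content was 34.3% at Cybb, 53.9% at Ncf1 and 60.0% at Cyba. Cybb held 3 matches to the GAAA pair, beginning at bases -168, -124 and -29 from the start, a CCAAT box at -56 and, just past the start at base 10, a GAGGAA core on the other strand. Ncf1 held 1 match to the GAAA pair at -82 and 1 GC box at -42. Cyba held GC boxes at -24 and -6 and none of the other motifs. Of 32851 RefSeq windows of the same length, the GAAA pair occurred in 3.28%, GAGGAA in 26.0%, GGGCGG in 34.7% and CCAAT in 36.1%. A match is a run of letters, and whether a factor binds there was not measured. The RefSeq table of starts matched 3 of the 5 genes, so Ncf4 and Rac2 are named here without sequence.

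**Figure D1:**
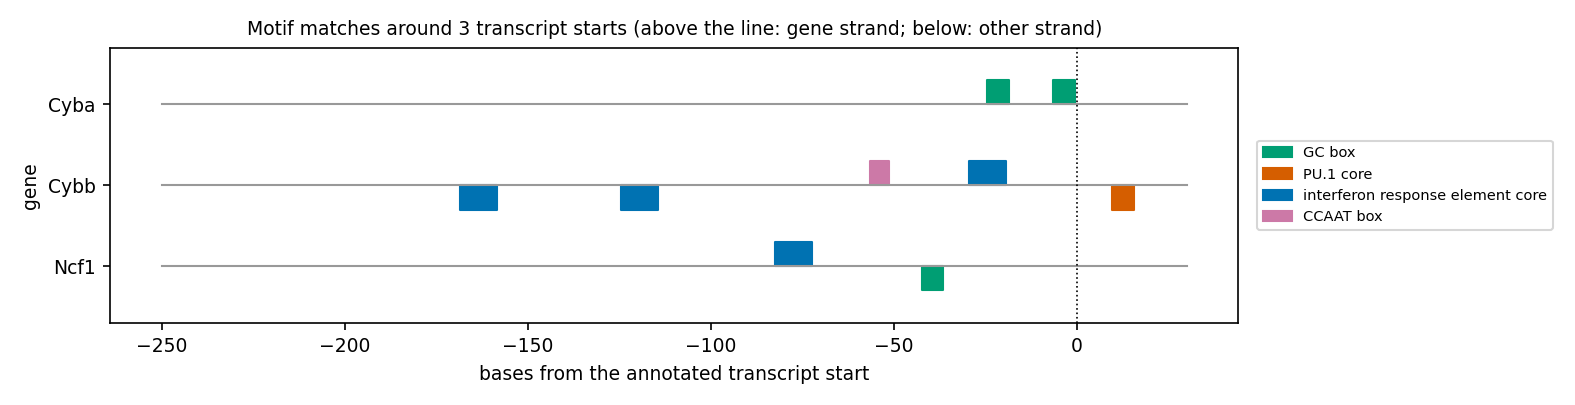
Positions of the motif matches in the 3 windows. The horizontal axis is bases from the annotated transcript start (dotted line), 1 row per gene, and boxes above or below a row's line are matches on the gene's strand or the other strand. The 3 matches of the GAAA pair at Cybb, the GC boxes at Cyba and the single match of each at Ncf1 can be seen.

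Cybb encodes gp91phox, the flavocytochrome that carries electrons from NADPH to oxygen. The gene lies on chromosome X from 9435252 to 9487771 (minus strand of mm10, ENSMUSG00000015340.10 in GENCODE M21). Its level was 87.8 FPKM in wild type against 62.0 in floxed cells at 24 h, and 60.1 in wild type against 156 in floxed cells at 48 h. The floxed value was the lower of the pair at 24 h and the higher of the pair at 48 h. At 24 h the floxed cells had 0.705 times the wild type level, with q = 0.00277 in the authors' deposited table. At 48 h they had 2.60 times the wild type level, with q = 0.000165, the smallest q the authors' deposited table holds at that time and one it gives to 3684 genes.

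The values of Cybb at the later time lay on opposite sides of the earlier ones in the 2 lines. Cybb at 48 h was 0.684 times its 24 h level in wild type cells, and 2.52 times its 24 h level in floxed cells. In floxed cells Cybb was the 1 oxidase gene at least 1.5-fold higher at the later time, a size reached by 12.0% of genes at 1 FPKM or more at both times in that line. In wild type cells 0 of the 5 were at least 1.5-fold lower, a size reached by 1.57% of genes under the same floor. Against the wild type cells at 24 h, the floxed cells at 48 h stood at 1.78 times. The genotype difference on the log2(FPKM + 1) scale was -0.50 at 24 h and 1.36 at 48 h, a shift of 1.86. With 1 value per group, neither the changes with time nor this shift has a test, and whether the authors scaled both times together is not recorded in their table. Of 10960 genes tested at both times, 118 (1.08%) were called lower at 24 h and higher at 48 h as Cybb was, and 18 (0.164%) the other way round.

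Cyba encodes p22phox, the membrane partner that holds gp91phox stable and offers p47phox its docking site. It lies on chromosome 8 from 122424776 to 122432930 (minus strand, ENSMUSG00000006519.11). Cyba was the most abundant of the 5 in every group, at 771 FPKM in wild type against 721 in floxed cells at 24 h, then 671 against 1038 at 48 h. The 24 h values were close (0.935 times wild type, q = 0.673 in the authors' deposited table). At 48 h Cyba was called higher in floxed cells at 1.55-fold, with q = 0.00112 in the authors' deposited table. From 24 to 48 h Cyba stood at 0.871 times its earlier level in wild type and 1.44 times in floxed cells, the same order of lines as for Cybb with smaller sizes.

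The ratio of the membrane pair differed between the groups, with no test of that difference. Per unit of transcript length there were 8.77 Cyba for each Cybb in wild type cells at 24 h, 11.6 in floxed cells at 24 h, 11.2 in wild type cells at 48 h and 6.64 in floxed cells at 48 h. The lowest ratio was thus in the group with the highest level of both genes. A ratio within a group does not depend on how the groups were scaled to each other.

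**Figure D2:**
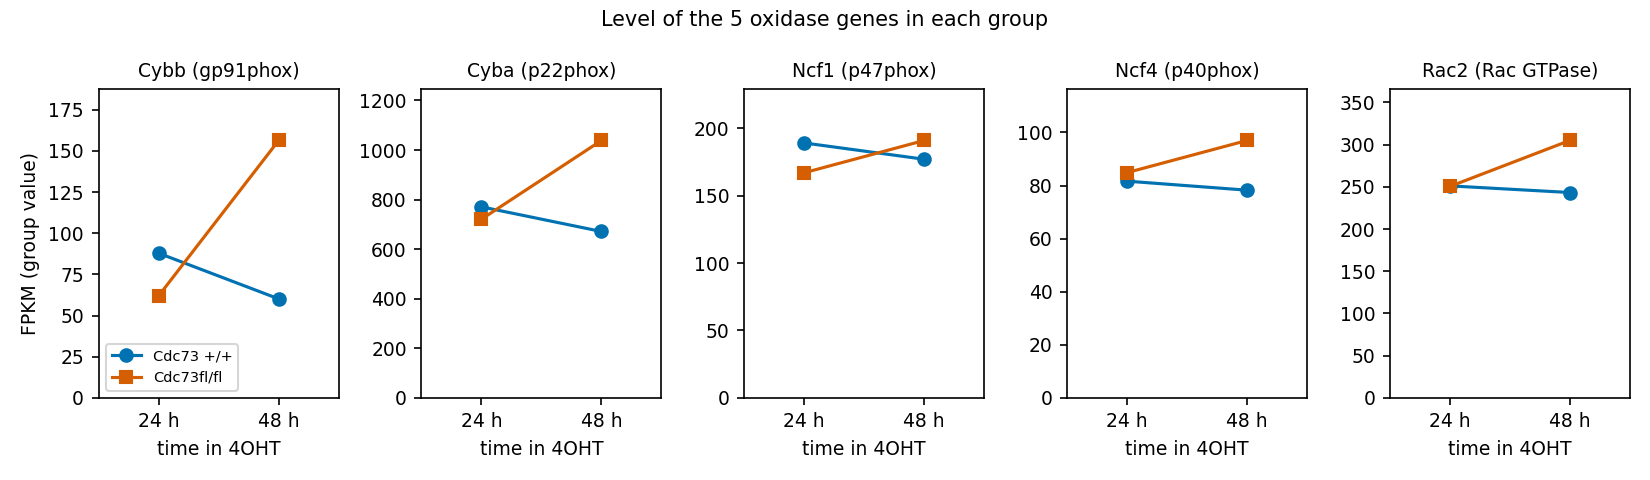
FPKM (vertical axes, each from 0) of the 5 genes at 24 and 48 h of 4OHT in wild type (circles) and floxed cells (squares), 1 panel per gene. Each point is the authors' group value, with no error bar because the duplicates were combined. The lines cross for Cybb, from 87.8 and 62.0 to 60.1 and 156, and lie close together for Ncf1.

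Ncf1 encodes p47phox, the organiser that is phosphorylated on stimulation and then brings the cytosolic complex to the membrane. It lies on chromosome 5 from 134220053 to 134229625 (minus strand, ENSMUSG00000015950.13). Its level was 189 FPKM in wild type against 167 in floxed cells at 24 h, then 177 against 191 at 48 h. The lowest value was that of floxed cells at 24 h and the highest that of floxed cells at 48 h. The ratio of floxed to wild type was 0.883 at 24 h (q = 0.373) and 1.08 at 48 h (q = 0.601) in the authors' deposited table, so neither difference was called.

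Ncf4 encodes p40phox, which binds a phosphoinositide of the vacuole membrane. It lies on chromosome 15 from 78244801 to 78262580 (plus strand, ENSMUSG00000071715.12). Its level was 81.7 FPKM in wild type against 84.9 in floxed cells at 24 h, then 78.3 against 97.0 at 48 h. The floxed value was the larger at both times, by 1.04-fold (q = 0.823) and 1.24-fold (q = 0.107) in the authors' deposited table, without a call. Ncf1 exceeded Ncf4 in every group, at 2.32 and 2.26 times its level in wild type cells and 1.97 times at both times in floxed cells.

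Rac2 encodes the GTPase of blood cells that switches the assembled oxidase on and also steers actin. It lies on chromosome 15 from 78559167 to 78572783 (minus strand, ENSMUSG00000033220.7), 296586 bases from Ncf4. Its level was 251 FPKM in wild type against 250.4 in floxed cells at 24 h, then 243 against 305 at 48 h. The 24 h values were level, with a log2 difference of -0.0041 that is 0.015 when groups are rescaled to the same sum and 0.0053 when rescaled by the median ratio. The 48 h ratio was 1.25, with q = 0.0998 in the authors' deposited table and no call.

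Seen together, 1 of the 5 oxidase genes was called lower and 0 higher at 24 h, and 2 were called higher and 0 lower at 48 h. Of all tested genes, 27.6% were called at 24 h (14.2% lower and 13.4% higher) and 56.8% at 48 h (25.7% higher and 31.0% lower). These shares are the background for the counts of the oxidase genes and of every list named further on. The median difference of the 5 was -0.10 at 24 h and 0.32 at 48 h on the log2(FPKM + 1) scale, against -0.011 and -0.065 over all tested genes. At 48 h all 5 floxed values exceeded the wild type values, 3 of them without a call. The difference of Ncf1, 0.11, was 0.011 with groups rescaled to the same sum and 0.045 under quantile normalization, and that of Rac2, 0.32, was 0.20 under quantile normalization. Cybb at 1.36 lay above 94.6% of tested genes, Cyba at 0.63 above 81.7%, Rac2 at 0.32 above 70.4%, Ncf4 at 0.31 above 69.5% and Ncf1 at 0.11 above 60.1%. The 5 genes together held 0.207% of all FPKM in wild type against 0.196% in floxed cells at 24 h, then 0.188% against 0.256% at 48 h.

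**Figure D3:**
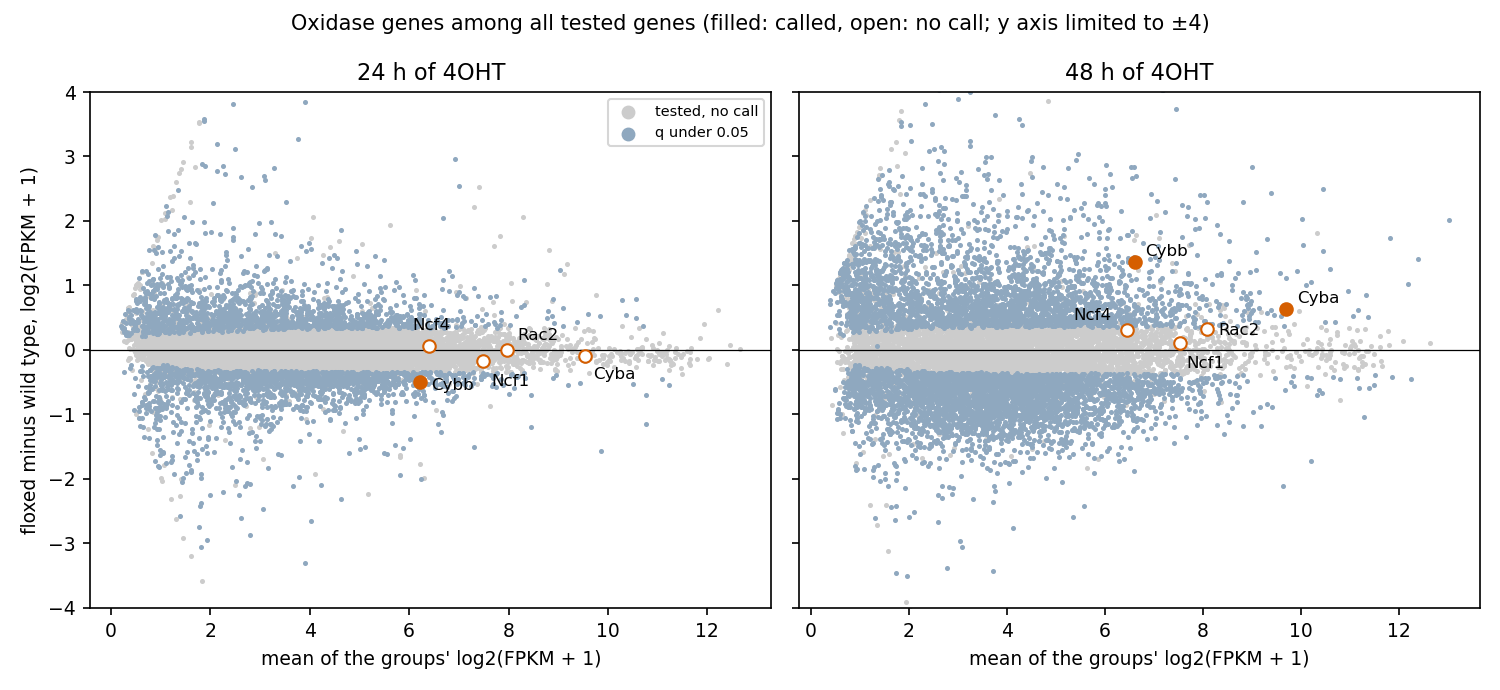
Difference of floxed and wild type cells (vertical axis, log2(FPKM + 1)) against the mean level of the groups (horizontal axis, the same scale) for all tested genes at 24 and 48 h, grey without a call and blue with q under 0.05. The 5 oxidase genes are large circles, filled when called: Cybb at -0.50 on the left, Cybb at 1.36 and Cyba at 0.63 on the right.

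The order of levels was Cyba, Rac2 and Ncf1 from the top in every group. Cybb and Ncf4 shared the lower end, and their order turned: Ncf4 stood at 0.930 times Cybb in wild type cells at 24 h, 1.37 times in floxed cells at 24 h, 1.30 times in the later wild type cells, but 0.621 times in floxed cells at 48 h. With no spread over libraries, which neighbours in this order differ could not be tested. All 5 were abundant genes. The lowest, Cybb in wild type cells at 48 h, was still above 84.5% of expressed genes, and Cyba was above at least 98.68% in each group.

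Of 3 further genes tied to the complex, 0 were called at 24 h, and 1 was called higher and 0 lower at 48 h, with medians of -0.070 and 0.31. Rap1a, a small GTPase found with the flavocytochrome, was called higher at 1.29-fold at 48 h, with q = 0.0493 in the authors' deposited table. Rac1, the widely expressed relative of Rac2, stood at 196 and 229 at 48 h without a call. BC017643, also named Cybc1 and needed for stable gp91phox protein, stood at 39.3 and 48.9 at 48 h without a call, and it shares its locus entry with other genes, so the split of its reads is uncertain.

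Of 13 expressed genes of 15 for the kinases and the phospholipase that act on p47phox and p40phox, 1 was called lower and 0 higher at 24 h, and 3 were called higher and 4 lower at 48 h, against 25.7% and 31.0% of all tested genes. Prkcd, one of the protein kinase C isoforms on this list, was 2.17-fold higher at 48 h, at 66.4 FPKM in wild type against 144 in floxed cells. Prkcb, another isoform, was called lower at both times, at 0.681 and then 0.736 times the wild type level. Mapk3, the ERK1 kinase, was also 2.17-fold higher, at 80.5 and 175. Pla2g4a, a cytosolic phospholipase that releases arachidonic acid, was at 0.583 times the wild type level and called lower. Irak4, a kinase of Toll-like receptor signalling, was at 0.669 times and called lower. The median of this list at 48 h was -0.034, and 0.044 with groups rescaled by the median ratio.

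Regulators of Rac included one gene with a large difference at both times. Of 10 genes, 2 were called higher and 1 lower at 24 h, and 1 higher and 2 lower at 48 h. Prex1, a Rac exchange factor of neutrophils, stood at 10.6 FPKM in wild type against 1.83 in floxed cells at 24 h, then 9.32 against 2.79 at 48 h, called lower at both times. Elmo1, which works with Dock family exchange factors, was at 0.723 times the wild type level at 48 h and called lower. Arhgap25, a GTPase-activating protein for Rac, was 1.96-fold higher at 48 h. Arhgdib, the abundant inhibitor that holds Rac and related GTPases in the cytosol, stood at 1554 and 1886 at 48 h without a call. The median at 48 h was -0.030, but 0.041 with the median ratio, 0.038 under quantile normalization and 0.032 among genes of at least 5 FPKM.

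Genes of the other NADPH oxidases had low values. Of 9 genes for them and their partners, Nox3, Nox4 and Duoxa1 were listed at 0 in every group, and only Noxo1, an organiser related to p47phox, reached 1 FPKM. Noxo1 stood at 0.332 in wild type against 1.39 in floxed cells at 24 h, then 0.313 against 1.87 at 48 h, called higher at both times. That is far below Ncf1, the organiser of the phagocyte enzyme. Noxo1 was under 1 FPKM in both wild type groups and passed the floor only through floxed cells, so its direction was set by the floor.

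Genes that act beside the oxidase or on its products were mixed. Of 14 genes for the proton channel and oxidant enzymes, 2 were called higher and 2 lower at 24 h, and 6 higher and 4 lower at 48 h, with medians of 0.17 and 0.31. Hvcn1, the voltage-gated proton channel that offsets the charge moved by the oxidase, was called lower at both times, at 29.9 FPKM in wild type against 13.7 in floxed cells at 24 h, then 31.8 against 10.9 at 48 h. Hvcn1 shares its locus entry with another gene. Hmox1, the haem oxygenase induced by oxidants, was 7.52-fold higher at 48 h, at 13.3 and 100.2. Prdx5, a peroxiredoxin, was 2.02-fold higher at 48 h. Epx, the eosinophil peroxidase, stood at 0.0331 and 5.49 at 48 h and was called higher at both times. It passed the floor of 1 FPKM only through the floxed groups. Mpo, which turns hydrogen peroxide into hypochlorous acid, was called higher at 24 h (1.74-fold) and lower at 48 h (0.739 times wild type).

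Of 9 genes that supply NADPH, 1 was called higher and 1 lower at 24 h, and 4 were called higher and 1 lower at 48 h, when 56.8% of all tested genes were called. G6pdx, the entry enzyme of the pentose phosphate pathway, was 1.88-fold higher at 48 h, at 132 FPKM in wild type against 248 in floxed cells. Pgd, the next NADPH-producing enzyme of that pathway, was 1.53-fold higher. Me1, the cytosolic malic enzyme, was 4.80-fold higher, at 4.02 and 19.3. Idh1, a cytosolic isocitrate dehydrogenase, was called lower at 0.660 times the wild type level. G6pdx and Me1 share their locus entries with another gene. The list's median was 0.24 at 48 h and 0.045 at 24 h, the latter -0.0038 under quantile normalization.

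Of transcription factors known to act on the oxidase promoters, 3 of the C/EBP family, Cebpb, Cebpd and Cebpe, were called higher at both times, while Cebpa was called lower at 24 h, at 68.8 FPKM in wild type against 35.7 in floxed cells. Among 12 expressed genes of 13, 5 were called higher and 2 lower at 24 h, and 7 higher and 2 lower at 48 h, with medians of -0.090 and 0.50. Cebpe, the factor of late granulocyte maturation, was called higher at both times, by 2.13-fold and then 4.45-fold, the latter at 70.3 FPKM in wild type against 313 in floxed cells. Cebpd was 2.29-fold higher at 48 h and Irf1, an interferon response factor, 1.91-fold higher. Elf1, an ETS factor that binds the Cybb promoter, was called lower at 48 h at 0.533 times wild type. Cebpd and Elf1 share their locus entries with another gene. PU.1, listed as Sfpi1, stood at 215 and 214.5 at 24 h and was called higher at 48 h at 1.39-fold. Irf8, which works with PU.1 at Cybb, stood at 30.8 and 27.1 at 48 h without a call. Outside the C/EBP family, Hoxa10 (1.75-fold and then 1.66-fold) and Hoxa9 (1.27-fold and then 1.45-fold) were also called higher at both times. Meis1 was called lower at both times, at 0.607 and then 0.642 times wild type.

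The list of receptors for opsonins and microbial products, which also holds the inhibitory receptor Fcgr2b and the signalling genes Syk and Card9, was called higher throughout at 48 h. All 15 genes were called higher then, against 25.7% of all tested genes, with a median of 0.69, whereas 6 were called higher and 3 lower at 24 h, with a median of 0.12. Fpr1 and Fpr2, receptors for formylated bacterial peptides, stood at 0.426 and 8.23 FPKM and at 2.16 and 27.3 at 48 h. Fcgr4, a receptor for antibody-coated particles, was 7.11-fold higher, and its signalling chain Fcer1g 4.90-fold higher at 202 and 991. The 3 genes called lower at 24 h and higher at 48 h, as Cybb was, were Fcgr1, C5ar1 and Clec7a, a receptor each for antibody, complement and fungal glucan. They were picked out after their values were seen.

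**Figure D4:**
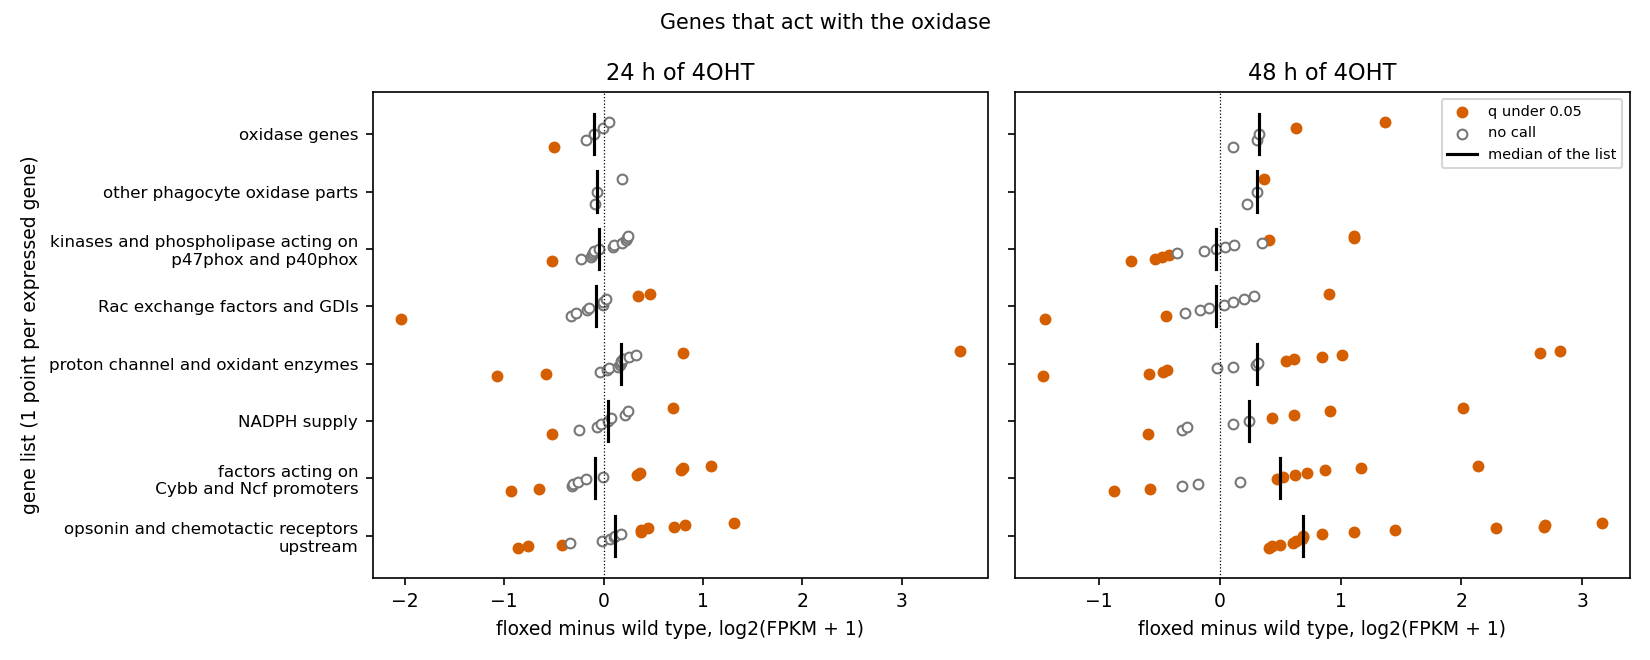
Difference of floxed and wild type cells (horizontal axes, log2(FPKM + 1)) for each expressed gene of the oxidase and of 7 lists of genes that act with it, at 24 and 48 h. Filled points have q under 0.05, open points do not, and the vertical bars are list medians: 0.32 for the oxidase genes and 0.69 for the list of receptors and their signalling genes at 48 h.

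Most neutrophil and monocyte markers were called higher at 48 h, as Cybb and Cyba were. Of 9 expressed neutrophil markers (Ly6g was not analysed here), 8 were called higher and 0 lower at 48 h, and their summed level was 700.2 FPKM in wild type against 1977 in floxed cells. At 24 h the sums were 1026 and 1127, with 4 called higher and 2 lower. The 2 lower were Mmp9 and Lcn2, both called higher at 48 h, as Cybb was. Mmp9 was at 0.416 and then 6.67 times wild type, and Lcn2 at 0.687 and then 4.70 times. Of 8 expressed monocyte and macrophage markers of 9, 6 were called higher and 2 lower at 48 h, with sums of 2655 and 6408, against 0 higher and 2 lower and sums of 3301 and 3226 at 24 h. The 2 lower were Ccr2 and F13a1 at both times. At 48 h Ccr2 stood at 52.1 FPKM in wild type against 33.6 in floxed cells, and F13a1 at 114 against 39.0. Lyz2 (587 and 3333) and Ly6c2 (1859 and 2860) made up most of the 48 h sums. Of 5 expressed eosinophil markers of 7, 4 were called higher at 24 h and 3 at 48 h, with 0 lower. Among them, Epx, Prg3 and Ear6 were under 1 FPKM in both wild type groups. These passed the floor only through floxed cells, so their direction was set by the floor. Ear6, without a call at 48 h, shares its locus entry with another gene. The 5 expressed eosinophil markers summed to 5.12 in wild type against 122 in floxed cells at 24 h and to 4.47 and 86.6 at 48 h. Prg2 made up most of the floxed sums, at 1.94 in wild type against 92.6 in floxed cells at 24 h, then 1.31 against 66.6. Siglec5 was slightly lower in floxed cells without a call, at 1.98 against 1.62 at 24 h, then 2.59 against 2.36. Ccr3 and Il5ra, the other genes of that list, stayed at or below 0.109 in every group. Of 4 expressed progenitor markers of 6, 1 was called higher and 3 lower at 48 h, with sums of 194 and 149.6. Of 3 expressed mast cell and basophil markers of 8, 2 were called higher and 1 lower at both times. Mcpt8, a basophil protease, stood at 3.16 in wild type against 8.77 in floxed cells at 24 h, then 3.52 against 5.92 at 48 h, and Ms4a2, a chain of the IgE receptor, at 0.848 against 3.26 at 24 h. Ms4a2 was under 1 FPKM in both wild type groups and passed the floor only through floxed cells. Kit was called lower, and Tpsb2, Tpsab1, Cma1 and Fcer1a were listed at 0 in every group. Of 3 expressed megakaryocyte markers of 5, 2 were called higher and 0 lower at 48 h. Pf4 stood at 0.977 in wild type against 10.8 in floxed cells then. Itga2b, at 0.0245 against 1.07, and Gp1bb, at 0.109 against 1.07 without a call, passed the floor only through floxed cells at 48 h. The direction of these genes was therefore set by the floor. Gp9, under 1 FPKM in every group and left out of the counts, stood at 0.744 against 0.235 at 48 h and was called lower. The part of these cells or states in the oxidase result was not tested.

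The genes whose 4 values ran most like those of each oxidase gene were found by the Euclidean distance between log2(FPKM + 1) values centred on each gene's mean, over 7117 genes that reached 10 FPKM and over 4 groups. With 4 points per gene, the likeness is a description only. The genotype differences come from these same 4 values, so like directions and sizes follow from the choice of genes. Nearest to Cybb were Cd68, a macrophage lysosomal glycoprotein (distance 0.055), Ankrd37 (0.13) and Cd177, a neutrophil surface protein (0.14). Cd68 stood at 54.1 and 38.0 FPKM at 24 h, then 35.5 against 92.6 at 48 h, and it and the other 2 were each called lower at 24 h and higher at 48 h. Nearest to Cyba were Cdc42se1 (0.040), Cndp2 (0.046) and Mvp (0.055), each without a call at 24 h and called higher at 48 h. Nearest to Ncf1 were Tti2, Pias4 and Rab32, to Ncf4 Cactin, Snx12 and Grsf1, and to Rac2 Bub3, Arih2 and Triap1, and none of these 9 was called at either time.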

How the data were processed

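RNA from 8 libraries was measured as 4 groups of 2. Per the submitters' processing notes, the tools were Cuffdiff, Cufflinks 2.1 and Bowtie2 on mm10, whose order is not recorded there. Per the file headers, the authors deposited 1 FPKM value per gene and group, and for each time a q-value and a fold (ratio) of the genotypes. The final column carries the 24 h name again. It equals the 48 h FPKM ratio within 0.1% for 14820 of 14823 genes above 0 and was read as that fold. Folds printed here were computed from the deposited FPKM values. Reads per library and the gene annotation were not given in the sources used here. No interval or detection limit was therefore computed.

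Expressed genes had at least 1 FPKM in some group, and tested genes also had q under 1 (10987 genes at 24 h, 11039 at 48 h). Left out were 27 names turned into date numbers. Log2 differences use a pseudocount of 1, which understates changes of low genes. The q-values rest on only 2 duplicates per group, whose origin from separate cultures is not stated. Calls, list counts and the likeness search were made in Python 3.11.15 with pandas 2.3.3. On simulated data, the likeness search and a cut on the size of log2 differences were tested. The calls by q-value and the list counts were not. Coordinates are 1-based, from GENCODE M21. The named genes were all 5 oxidase genes, up to 4 called genes per list with the largest difference at 48 h, the 3 nearest genes per oxidase gene, and a few more named beside them after their values were seen. The oxidase genes and the lists were chosen with earlier results of these data known. An item of the list of further genes tied to the complex is not reported here, and its counts leave it out. None of the 5 shares its locus entry with another gene.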

Additional observations from a re-analysis of the deposited data

Results flagged for a closer look

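Cybb was called in opposite directions at the 2 times, lower in floxed cells at 24 h and higher at 48 h. Its genotype difference was -0.50 at 24 h and 1.36 at 48 h on the log2(FPKM + 1) scale, so that it shifted by 1.86. The shift itself was not tested, since the deposited table holds 1 value per group. It ranged from 1.75 with groups rescaled to the same sum to 1.93 with groups rescaled by the median ratio. None of the other 4 oxidase genes was called at both times.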

How the results depend on the processing

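The 8 alternatives were a q under 0.01, no filter on low values, a floor of 5 FPKM, pseudocounts of 0.1 and 5, groups rescaled to the same sum or by the median ratio, and quantile normalization. The authors' q-values were kept throughout. Pseudocounts, rescaling and quantile normalization therefore could not change a call. At a q under 0.01 the same counts of oxidase genes were called at each time and in each direction. Of 80 recomputed differences of single oxidase genes, 2 changed sign. Both were for Rac2 at 24 h, which had no call: 0.0149 with groups rescaled to the same sum and 0.0053 with the median ratio, against -0.0041. Many of the 80 could not change sign, since the q cut, the filters on low values and the pseudocounts cannot turn a difference. Only the 2 rescalings and quantile normalization could. Rac2 in wild type cells went from -0.046 between the times to 0.0029 under quantile normalization. The number of oxidase genes at least 1.5-fold changed from 24 to 48 h in floxed cells was 1 (Cybb), and 2 with the median ratio, which added Cyba. Cybb differed by -0.50 at 24 h, with a range of -0.50 to -0.47 over the alternatives, and by 1.36 at 48 h, with a range of 1.27 to 1.44. Cyba ranged from 0.42 under quantile normalization to 0.71 at 48 h, Ncf1 from 0.011 with the same sum to 0.19 with the median ratio, Ncf4 from 0.21 to 0.38 and Rac2 from 0.20 to 0.40.

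List medians changed sign near 0. For kinases at 48 h it was 0.044 with the median ratio. For Rac regulators at 48 h it was 0.032 at a floor of 5 FPKM, 0.041 with the median ratio and 0.038 under quantile normalization. For NADPH supply at 24 h it was -0.0038 under quantile normalization. The median of all tested genes was 0.0059 at 24 h with the same sum and 0.0068 at 48 h with the median ratio. At a q under 0.01, 18.2% of tested genes were called at 24 h. No paired analysis was possible because the duplicates of each group were combined before deposit, and leaving out single libraries was not run for the same reason. FPKM is relative to all other RNA, so it does not show a change in the amount of RNA in a cell.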

Other observations

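Ncf4 and Rac2 lie on chromosome 15 with 6 expressed genes between them, looked at after the values were seen. Of these, 2 were called higher and 0 lower in floxed cells at 48 h. Csf2rb, the common beta chain of the receptors for interleukin 3, interleukin 5 and GM-CSF, stood at 45.1 FPKM in wild type against 64.6 in floxed cells at 24 h, then 41.1 against 109.9 at 48 h. Csf2rb2, its interleukin 3 relative, stood at 7.22 and 9.91 and at 5.48 and 19.6. Both were called higher at 24 h too. The cells were grown in interleukin 3. Tst, Mpst and Kctd17, the next expressed genes along, had no call at either time, and C1qtnf6 was called higher at 24 h, with 48 h values of 2.27 and 2.02 and no call.

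The expressed genes around Cyba on chromosome 8 had calls in both directions. Zc3h18, beyond the Cyba end, was called higher at both times, by 1.29-fold and 1.32-fold. Mvd, the nearest to the Cyba start, stood at 56.6 and 51.0 FPKM at 48 h without a call. Beyond it, 9330133O14Rik was called higher at both times, by 1.74-fold and 4.17-fold, and shares its locus entry with another gene. Snai3, a zinc finger gene farther along, was called lower at both times, at 7.08 and 2.77 at 24 h and at 5.49 and 1.45 at 48 h. On chromosome 5, the genes on either side of Ncf1 at 48 h were called in opposite directions, Gtf2i lower at 0.640 times wild type and Gtf2ird2 higher at 1.40-fold.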
